A study of Rattus norvegicus with 12 samples.

Results

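The Igf2bp genes Igf2bp1, Igf2bp2 and Igf2bp3 encode the insulin-like growth factor 2 mRNA-binding proteins, also called IMPs. They were followed in rat valve and aorta through every probe set whose only annotated gene symbol is one of these 3 names. This gave 6 probe sets of 31042, for 3 genes of 14217. Igf2bp1 had 1 probe set (1385469_at), Igf2bp2 had 2 (1382220_at and 1382609_at) and Igf2bp3 had 3 (1393202_a_at, 1390860_at and 1377824_a_at). Wistar rat RNA was hybridised to 12 Affymetrix arrays, which form 4 groups of 3: adult semilunar valve, neonatal semilunar valve, adult proximal aorta and neonatal proximal aorta. Aortic and pulmonary valves together made up the valve samples, neonatal tissue was taken in the first 24 h of life, and adult rats were labelled male. The labels state neither the adult age, nor the sex of the neonates, nor how many animals gave 1 sample, and they name no genotype and no treatment. The p-values below therefore measure the spread between these samples, which may in part be technical.

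IMP proteins bind selected mRNAs through RNA recognition and KH domains, package them into cytoplasmic granules, and act on their stability, their transport and their translation. In mammals they are known as oncofetal proteins: they are abundant in the embryo, most of them are low in adult tissues, and they return in many tumours. Igf2bp2 is the member best known for remaining in adult tissues. Igf2 mRNA, which encodes a fetal growth factor, gave the family its name. In human and mouse cells the members also read the m6A mark on mRNA, and their own mRNAs are targets of the let-7 microRNAs, which the protein LIN28 holds back.

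RefSeq start-site windows (GRCr8 build) are printed for Igf2bp2 and Igf2bp3, so that their starts can be compared. Both genes read lower in adult tissues below, as did Igf2bp1, for which no window was available. Each window holds 250 bases before and 50 after the annotated start of the gene, 5′ to 3′ on the strand of the gene. The Igf2bp2 window lies at chr11:92378658-92378957 on the plus strand. The Igf2bp3 window lies at chr4:79525681-79525980 on the minus strand. Capitals mark every match to GGGCGG (the GC box) or CACGTG (an E-box) on either strand, and no matches overlap.
Igf2bp2: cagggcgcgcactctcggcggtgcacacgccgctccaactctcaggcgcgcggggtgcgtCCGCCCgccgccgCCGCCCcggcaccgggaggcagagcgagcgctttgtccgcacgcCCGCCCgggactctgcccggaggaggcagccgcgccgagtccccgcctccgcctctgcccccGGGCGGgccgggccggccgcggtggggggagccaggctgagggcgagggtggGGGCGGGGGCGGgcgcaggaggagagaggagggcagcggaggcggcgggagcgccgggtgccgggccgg
Igf2bp3: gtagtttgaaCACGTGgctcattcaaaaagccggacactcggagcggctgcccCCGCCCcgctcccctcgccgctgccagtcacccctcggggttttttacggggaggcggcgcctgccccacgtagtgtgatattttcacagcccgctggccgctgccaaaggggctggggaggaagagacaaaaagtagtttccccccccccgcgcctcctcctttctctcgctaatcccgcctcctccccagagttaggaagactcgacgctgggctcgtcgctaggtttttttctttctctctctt
The Igf2bp2 window is 82.3% G and C and holds 46 CpG dinucleotides and 6 GC boxes. The Igf2bp3 window is 61.0% G and C and holds 23 CpG dinucleotides, 1 GC box and 1 E-box, which starts at position -240 relative to the start. Over 27457 rat windows of the same length the medians were 52.3% and 7 CpG dinucleotides, 34.9% held a GC box and 6.65% held CACGTG. Neither window had the letters CCAAT or TATAAA on either strand, which 37.7% and 14.3% of all windows held.

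The signal is a linear MAS5 intensity, which near its floor does not measure a level. Neonatal aorta arrays 2 and 3 lacked the bacterial control RNAs present on the other 10 arrays. On those 2 arrays the 8 probe sets for the 3′ ends of these RNAs read 2.52 to 54.6, against 137 or more on the others. A signal of up to 54.6 is therefore called the absent level below, and where every array of a group was at or below it, a fold is given as a bound. A probe set was tested where it exceeded 171.944, the median of all signals, on at least 3 of the 12 arrays. Of the 6 probe sets 4 passed, and Igf2bp1 and 1382609_at did so with exactly 3 arrays. The Igf2bp genes were selected on their signal differences between ages in these 12 arrays, so age differences are given as descriptions with no test, and differences between tissues are tested.

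Several features of the arrays moved with tissue, with age or with single arrays. In 6 samples, titled adult aorta or neonatal valve, the tissue entry of the labels names the other of these groups; title and source name match and set the groups here. The signal ratio of the 3′ to the 5′ end of beta-actin was 7.24 to 14.0 on valve arrays and 1.40 to 2.59 on aorta arrays. Xist read 10998 to 18362 on valve arrays and 5.08 to 297 on aorta arrays. The adult groups share the label male, yet Xist read 12355 to 18362 in adult valve and 15.9 to 25.2 in adult aorta. Whether both adult groups are of 1 sex is therefore not settled. The actin ratio, the Xist signal and the tissue cannot be told apart. Within valve the actin ratio also moved with age, at 10.6 to 14.0 on adult and 7.24 to 8.84 on neonatal arrays. The same ratio of Gapdh was 2.78 to 5.13 in adult and 1.97 to 2.60 in neonatal valve, and 0.999 to 1.13 in adult and 0.917 to 0.972 in neonatal aorta. The part of these ratios in the age differences was not tested. The 7 cardiac muscle markers measured summed to 3817 to 83587 in adult valve, 75463 to 92163 in neonatal valve, 205 to 308 in adult aorta and 31461 to 54428 in neonatal aorta. Of these 7 markers 0 were at the absent level on any neonatal valve array, and 4 to 6 were on adult aorta arrays. In aorta the cardiac muscle sums thus moved with age without overlap, and their part in the aorta age differences was not tested. The 5 adipocyte markers summed to 233 to 1286 in adult valve, 547 to 966 in neonatal valve, 3658 to 60962 in adult aorta and 21501 to 41364 in neonatal aorta. Adult aorta 1 stood apart with the highest sums of the 7 skeletal muscle markers (148453) and the 6 squamous epithelium markers (136845), and neonatal aorta 2 had the next highest squamous sum (72426). The 6 smooth muscle markers summed to 1603 to 38789 in adult valve, with 1603 on adult valve 3, and to 9455 to 13320 in neonatal valve. They summed to 29784 to 120782 in adult aorta and 26563 to 40030 in neonatal aorta. All 6 were above the absent level on all 12 arrays. Fewer cells of a type and less RNA per cell cannot be told apart in such samples.

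Igf2bp1 read lower in both adult tissues, at or near the absent level. The protein, IMP1, is the zipcode-binding protein first known for localising beta-actin mRNA. Its signals were 36.6, 14.8 and 46.5 in adult valve, and 94.7, 189.8 and 86.1 in neonatal valve. They were 73.1, 19.4 and 54.7 in adult aorta, and 173, 196 and 126 in neonatal aorta. All 3 adult valve arrays lay below the absent level, and in neither tissue did adult and neonatal arrays overlap. Adult valve was at least 2.12-fold lower than neonatal valve (fitted log2 difference -1.98 ± 0.64 SE, n = 3 each). Adult aorta, with 2 of 3 arrays just above the absent level, differed from neonatal aorta by -1.93 ± 0.64 on the log2 scale. The neonatal tissues overlapped, and the adult groups, at or near the absent level, have no order.

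Igf2bp2 was the member that stayed measurable in every group. IMP2 is known from human genetics for a link to type 2 diabetes, and in mouse brown fat it binds the mRNA of Ucp1. Probe set 1382220_at read 174, 139 and 264 in adult valve, and 2039, 1489.6 and 1440.3 in neonatal valve. In adult aorta it read 270.1, 202 and 78.6, and in neonatal aorta 1300.5, 1378 and 1137. Every adult array lay above the absent level and far below every neonatal array. Adult valve was 8.82-fold lower than neonatal valve (log2 difference -3.14 ± 0.41 SE, n = 3 each). Adult aorta was 7.81-fold lower than neonatal aorta (-2.97 ± 0.41), and -3.33 without adult aorta 1. Subtracting the aorta age difference from the valve one left -0.18 ± 0.57 on the log2 scale, smaller than its standard error.

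The other Igf2bp2 probe set, 1382609_at, did not share this pattern. It read 45.1, 54.1 and 101 in adult valve, and 114, 111 and 79.0 in neonatal valve. Its signals were 181, 140.4 and 175 in adult aorta, and 122, 189.8 and 89.6 in neonatal aorta. The adult and neonatal arrays overlapped in both tissues, with log2 differences of -0.67 ± 0.41 in valve and 0.37 ± 0.41 in aorta. Whether the 2 probe sets detect different transcripts of Igf2bp2 was not tested, and the statements on Igf2bp2 below rest on 1382220_at.

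On 1393202_a_at Igf2bp3 was high in neonatal valve and at the absent level in adult valve. In neonatal valve 1390860_at reached only 131 and 1377824_a_at only 74.9. Values given for Igf2bp3 below with no probe set named are of 1393202_a_at. IMP3 is the member most closely tied to fetal and tumour tissue. Probe set 1393202_a_at read 2.48, 3.09 and 3.50 in adult valve, and 2198, 1173 and 1882 in neonatal valve. In adult aorta it read 49.9, 64.7 and 113, and in neonatal aorta 403, 489 and 451. No 2 groups overlapped on this probe set: neonatal valve came first, then neonatal aorta, and both adult groups lay below. Adult aorta had 1 of 3 arrays at the absent level and the others near it, so the adult groups are not ranked. Adult valve lay far below the absent level on all 3 arrays, so it was at least 31.0-fold lower than neonatal valve. The fitted log2 difference of -9.14 ± 0.39 SE (n = 3 each) was -5.62 with 32 added to each signal and is no measure of size. Adult aorta, with 2 of 3 arrays above the absent level, was 6.24-fold lower than neonatal aorta (-2.64 ± 0.39, and -2.38 without adult aorta 1).

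The other Igf2bp3 probe sets did not pass the filter, and their neonatal arrays were again above their adult arrays. Probe set 1390860_at read 9.27, 3.40 and 7.50 in adult valve, and 105, 122 and 131 in neonatal valve. It read 5.80, 14.1 and 26.8 in adult aorta, and 132, 201 and 192 in neonatal aorta. Its adult arrays were all below the absent level, which makes adult valve at least 2.18-fold and adult aorta at least 3.16-fold lower than the neonatal tissue. Probe set 1377824_a_at read 14.5, 3.54 and 24.7 in adult valve, and 43.9, 49.7 and 74.9 in neonatal valve. Its signals were 26.1, 31.0 and 31.1 in adult aorta, and 67.4, 149.5 and 91.2 in neonatal aorta. Adult aorta was at least 1.78-fold lower here, while neonatal valve itself had 2 of 3 arrays at the absent level, so no fold is given in valve.

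**Figure D1:**
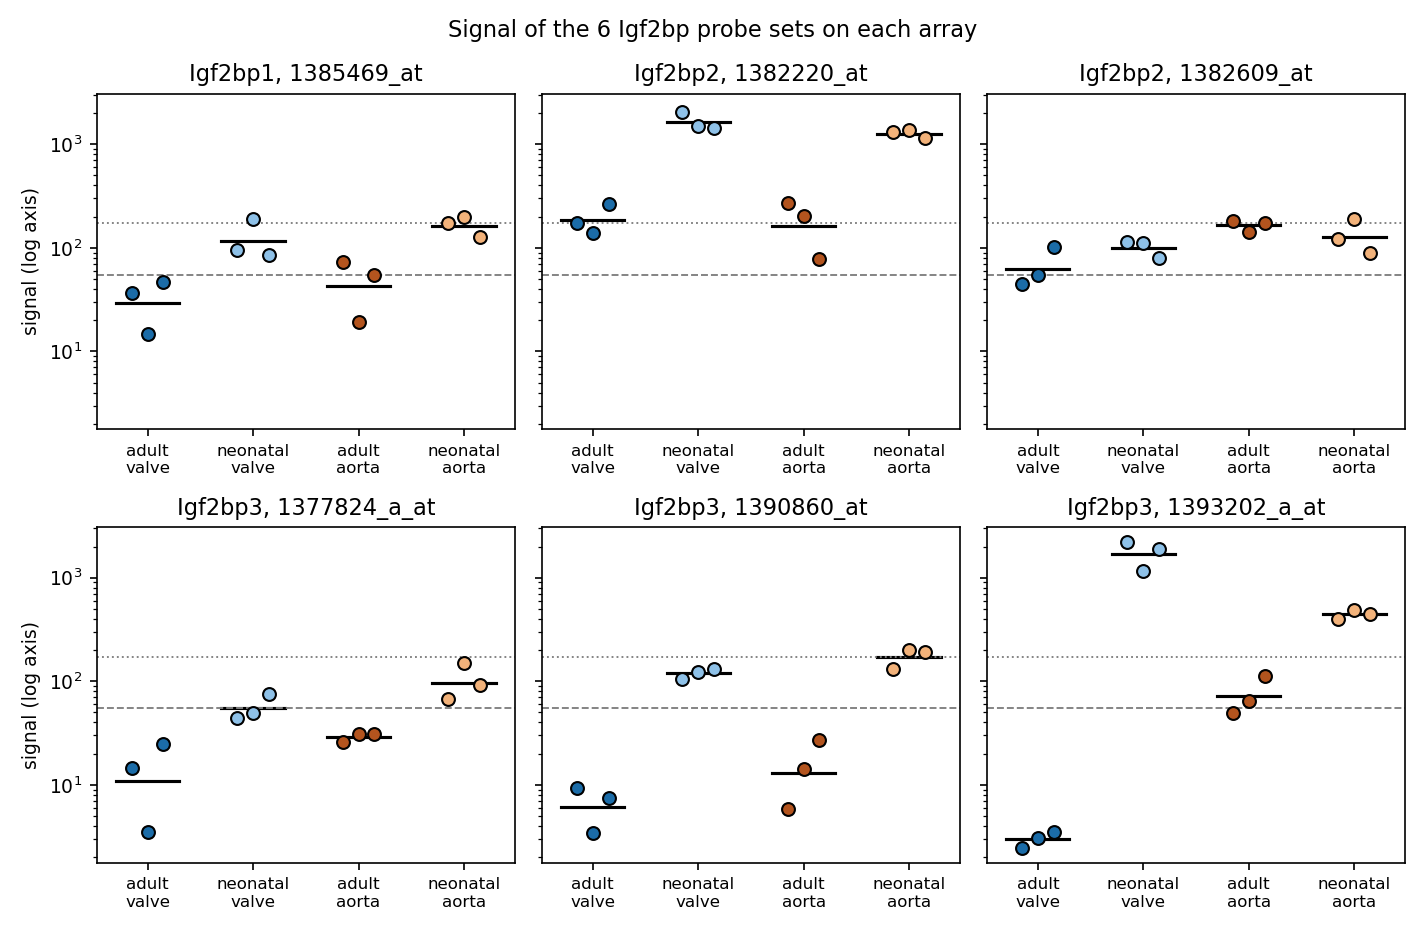
Signal of the 6 Igf2bp probe sets (MAS5 intensity, log axis) on each of the 12 arrays by group, with bars at the geometric mean of 3 arrays. The dashed line is the absent level of 54.6 and the dotted line the filter level of 171.944; the 3 neonatal valve points of 1393202_a_at lie between 1173 and 2198, and its 3 adult valve points between 2.48 and 3.50.

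For 5 of the 6 probe sets every adult array was below every neonatal array, in valve and in aorta alike. Among all 18552 probe sets tested this held for 18.5% in valve and for 20.2% in aorta, and the reverse for 14.9% and 10.7%. The limma fit called 9.21% of them between adult and neonatal valve (5.21% lower) and 7.31% between adult and neonatal aorta (5.37% lower, 1.94% higher). These shares are background for the list counts further on. Nothing is read from them for the Igf2bp genes, which are taken to have been picked for this contrast.

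On 1393202_a_at the fitted age difference was larger in valve than in aorta (valve minus aorta -6.50 ± 0.54 SE on the log2 scale, and -3.43 with 32 added to each signal). Adult valve lay at the floor, so the size of this value is not measured. What was measured is that adult valve was at least 31.0-fold lower than neonatal valve. Adult aorta was 6.24-fold lower than neonatal aorta as fitted, and 6.05-fold with its 1 array below the absent level raised to it. These folds start from unlike neonatal levels, with geometric means of 1693 in valve and 446 in aorta. A fold that ends at the absent level is therefore smaller in aorta. In the fit 1390860_at (-0.54 ± 0.61) and 1377824_a_at (-0.83 ± 0.67) had neonatal valve below neonatal aorta, neither passing the test. A larger age difference of Igf2bp3 in valve is thus not shown. All 6 adult arrays of 1390860_at and of 1377824_a_at were at the absent level, and those of Igf2bp1 at or near it, so the age differences of the tissues could not be compared for them.

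**Figure D2:**
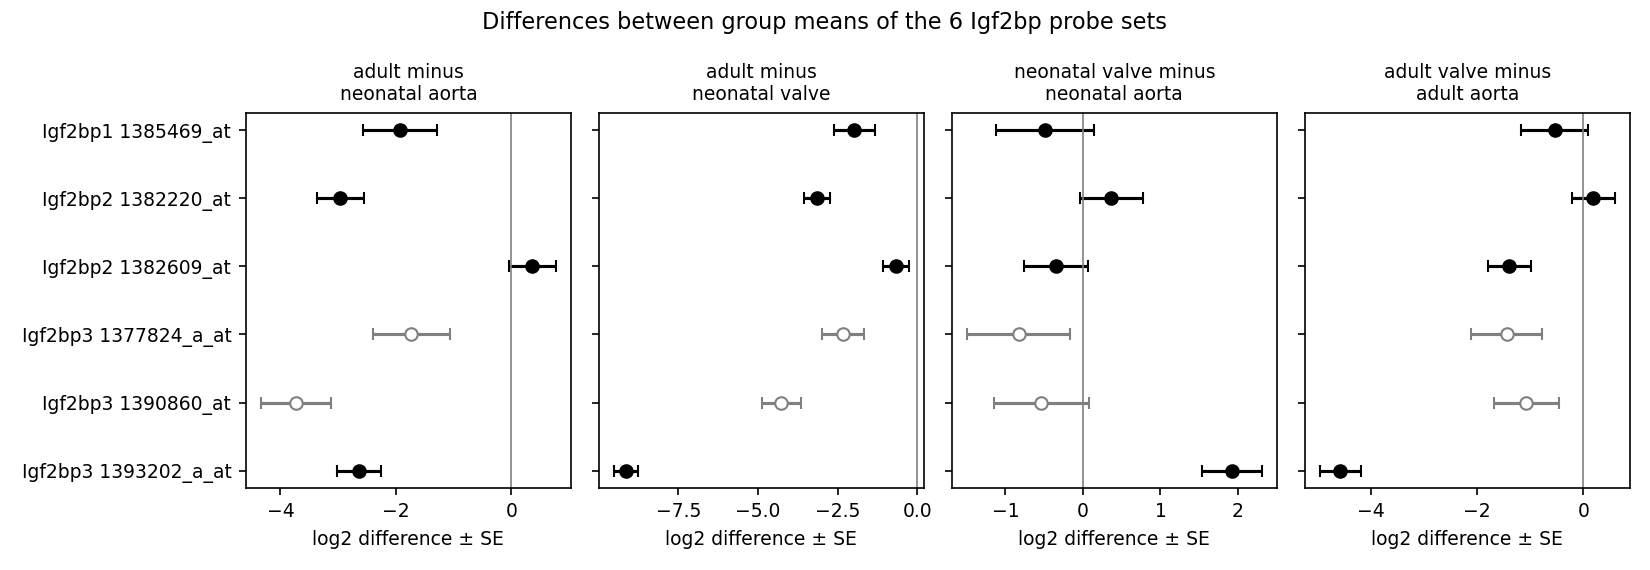
Log2 differences between group means with the standard errors of the fit, for each Igf2bp probe set in 4 comparisons; open grey points mark the 2 probe sets that did not pass the filter. Differences for groups at the absent level depend on the floor of the scale, as for 1393202_a_at between adult and neonatal valve (-9.14, against a bound of at least 31.0-fold).

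Between the neonatal tissues 1 Igf2bp3 probe set was called. On 1393202_a_at neonatal valve was 3.79-fold higher than neonatal aorta (mean log2 signals 10.73 ± 0.47 and 8.80 ± 0.14, SD, n = 3 each; difference 1.92 ± 0.39 SE; limma adjusted p = 0.00357). The call was made for 1 of the 4 Igf2bp probe sets tested, while 32.6% of all probe sets tested were called between these groups (13.3% higher and 19.3% lower in neonatal valve). The call did not hold when the 2 arrays without control RNAs were set as a block (difference 2.07). Both are neonatal aorta, so with this block the neonatal aorta mean rests on array 1 alone. The same limit holds for every comparison with neonatal aorta under the control RNA block. Neonatal aorta 1, which carried the control RNAs, read 403, below all 3 neonatal valve arrays. The other Igf2bp3 probe sets pointed the other way without passing the test when fitted with no filter: -0.54 ± 0.61 for 1390860_at (limma adjusted p = 0.576) and, with 2 of 3 neonatal valve arrays at the absent level, -0.83 ± 0.67 for 1377824_a_at (adjusted p = 0.413).

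The other members were not called between neonatal tissues. Igf2bp2 read higher in neonatal valve on every array without overlap, by a log2 difference of 0.37 ± 0.41 (limma adjusted p = 0.519); 26.2% of all probe sets tested were higher in neonatal valve without overlap, and 33.5% lower. Igf2bp1 differed by -0.49 ± 0.64 (adjusted p = 0.589) and 1382609_at by -0.35 ± 0.41 (adjusted p = 0.546). These intervals do not show equal levels. Beside them, the cardiac muscle sums were 75463 to 92163 in neonatal valve and 31461 to 54428 in neonatal aorta. The thymocyte markers summed to 2125, 311 and 26324 in neonatal valve arrays 1, 2 and 3, where Igf2bp3 read 2198, 1173 and 1882. Their part in the Igf2bp3 difference was not tested.

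Between the adult tissues 1393202_a_at of Igf2bp3 was called lower in valve, and so was 1382609_at, the dimmer probe set of Igf2bp2, but 1382220_at was not. For 1393202_a_at the adult valve arrays (2.48, 3.09 and 3.50) read below the adult aorta arrays (49.9, 64.7 and 113), with a limma adjusted p of 4.13e-05. This p rests on how far adult valve lay under the absent level, where signals have no order. No adult array exceeded the filter level, which 1393202_a_at passed through its neonatal arrays, so this call is not counted as support. Adult aorta itself was close to the absent level, and with adult valve raised to that level adult aorta read only 1.31-fold above it. For 1382609_at adult valve read 2.62-fold below adult aorta as fitted (-1.39 ± 0.41 SE, limma adjusted p = 0.021, and 0.0277 with no filter), and 2.45-fold with its 2 arrays below the absent level raised to it. The 3 arrays that took this probe set past the filter were all aorta, so its call is not counted as support. The call was lost with quantile normalization (-0.84, adjusted p = 0.114), with each array centred on its median (adjusted p = 0.0655), with only the adult groups in the fit (0.0696), and without adult valve 1 (0.072) or adult valve 2 (0.0601). These were 2 of the 4 Igf2bp probe sets tested, beside 37.1% of all probe sets called (19.9% lower and 17.3% higher in adult valve); of all tested, 23.2% were lower and 21.1% higher in adult valve without overlap. Igf2bp2 on 1382220_at (0.19 ± 0.41, adjusted p = 0.737) and Igf2bp1, whose adult groups were at or near the absent level (adjusted p = 0.532), were not called. All adult arrays of 1390860_at and 1377824_a_at were below the absent level, so the adult tissues were not compared on them.

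Of the IMP client mRNAs, those known to be bound by members of the family, Igf2 fell in both adult tissues. Igf2 read 352, 376 and 184 in adult valve, and 6391, 8898 and 6189 in neonatal valve. In adult aorta it read 831, 879 and 339, and in neonatal aorta 17222, 20674 and 20768. It fell 24.3-fold in adult valve (log2 -4.61 ± 0.38, limma adjusted p = 0.000181) and 31.0-fold in adult aorta (-4.96 ± 0.38, 0.000127). Igf2 was lower in neonatal valve than in neonatal aorta (-1.46 ± 0.38, adjusted p = 0.0123, and 0.182 with the control RNA block). In adult valve it was also below adult aorta (-1.11 ± 0.38, adjusted p = 0.0371), a call lost in 7 other settings (adjusted p = 0.0508 to 0.155), among them quantile normalization (0.0616), centring (0.155) and adult aorta 1 (0.0956), adult aorta 2 (0.128) or adult valve 3 (0.129) left out.

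H19, a noncoding RNA next to Igf2 that IMPs bind in mouse, read 371, 365 and 319 in adult valve, and 10231, 12338 and 9604 in neonatal valve. It read 18157, 471 and 225 in adult aorta, and 14554, 22818 and 19144 in neonatal aorta. Adult aorta 1 was at the neonatal level. H19 fell in adult valve (-4.93 ± 1.18, limma adjusted p = 0.0279). With the valve groups alone in the fit the adjusted p was 0.000301 (SE 0.19), and with any valve array left out it was 0.0556 to 0.0832 at differences of -5.00 to -4.82. In aorta the difference was -3.90 ± 1.18 (adjusted p = 0.0713), and without adult aorta 1 it was -5.83 ± 0.30 (adjusted p = 1.17e-05). The Igf2bp genes in adult aorta 1 were 73.1 for Igf2bp1, 270.1 for Igf2bp2 and 49.9 for Igf2bp3, none of them at the neonatal level.

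Over the 16 client genes tested, 2 fell and 0 rose between adult and neonatal valve, and 4 fell and 0 rose in aorta, against 0 and 3 that rose at an unadjusted p under 0.05. The median log2 difference was -0.33 in valve and -0.35 in aorta, and over all probe sets tested -0.04 and -0.08. The valve count was 1 with any valve array left out. The aorta count was 1 without adult aorta 2 or any neonatal aorta array and with the control RNA block, 2 with these groups alone, and 2 higher and 3 lower without adult aorta 1. The aorta calls were Igf2 and, named after their values were seen, Gli1, Nras and Ccnd3. Myc, whose mRNA IMP1 shields from decay in human cells, was not called in any comparison (-0.94 ± 0.62 in aorta, adjusted p = 0.399; 0.02 ± 0.62 in valve, adjusted p = 0.989). Between neonatal tissues 2 clients were higher in valve and 4 lower. Btrc, a ubiquitin ligase subunit, was higher in neonatal valve (1.28 ± 0.29, adjusted p = 0.00635, and 0.0848 with the control RNA block). Ucp1, the uncoupling protein of brown fat, read 1.55, 22.9 and 2.59 in neonatal valve, all at the absent level, against 5394, 4256 and 295 in neonatal aorta (adjusted p = 0.00464), beside the adipocyte sums given above. Between adult tissues 2 clients were higher in valve and 2 lower, among them Ccnd1, which encodes cyclin D1 (1.57 ± 0.32, adjusted p = 0.00334). With the control RNA block 0 were higher and 1 lower in neonatal valve, and with any neonatal array left out 2 were higher and 2 or 3 lower. After the arrays were centred on their medians the client counts were 4 higher and 3 lower in neonatal valve, and 2 higher and 1 lower in adult valve.

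**Figure D3:**
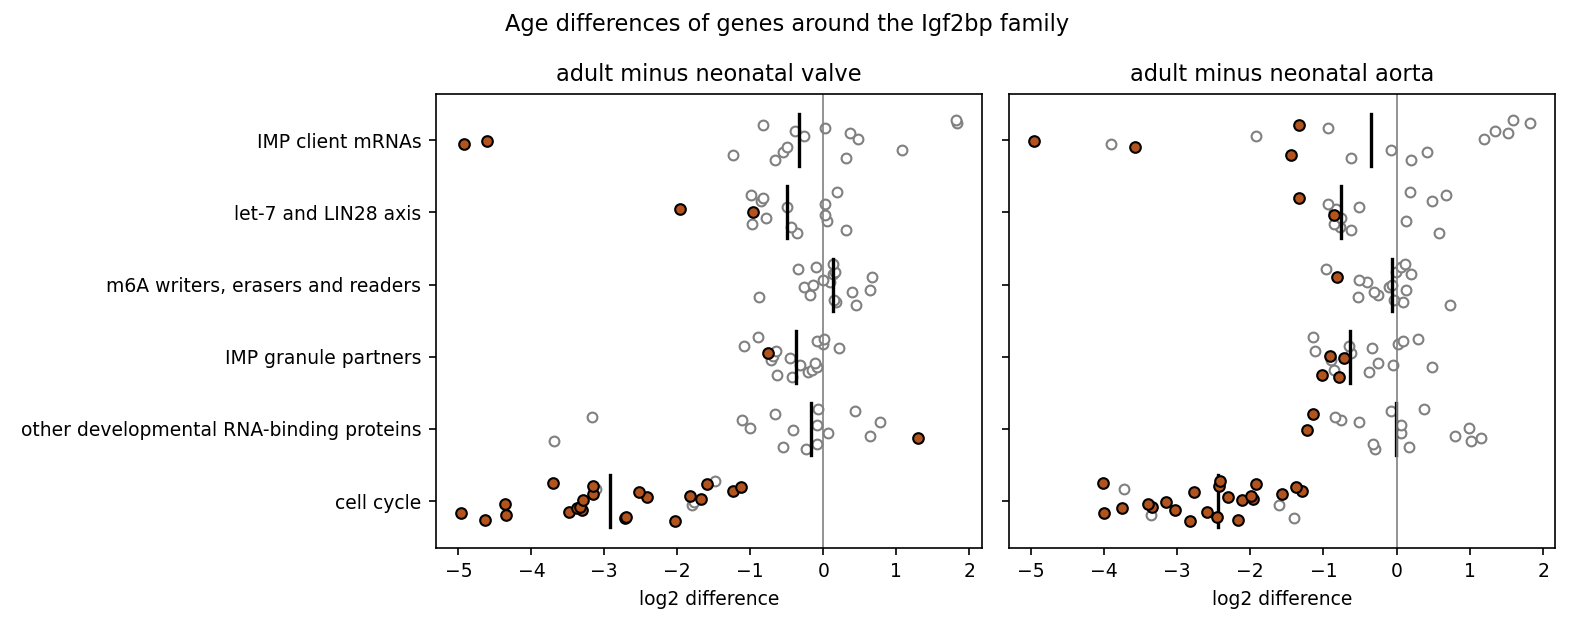
Log2 differences between adult and neonatal tissue of the tested genes in 6 lists around the Igf2bp family, in valve (left) and aorta (right). Filled points passed the limma test at an adjusted p under 0.05, and black bars are list medians; the cell cycle list has 22 of 26 genes filled in each tissue.

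The let-7 and LIN28 list holds regulators and targets of the microRNA that represses IMP mRNAs. Among all probe sets tested, 5.21% were called lower and 4% higher in adult valve, and 5.37% and 1.94% in adult aorta. Of the 15 list genes tested, 2 fell in adult valve and 2 in adult aorta, and 0 rose in either, also at an unadjusted p under 0.05. The aorta count was 0 without adult aorta 2 or any neonatal aorta array, with the control RNA block and with these groups alone, 1 without adult aorta 1 and 3 without adult aorta 3. The valve count was 0 without adult valve 1 and 1 without adult valve 2 or any neonatal valve array. E2f5, a cell cycle transcription factor, fell in adult aorta (-0.85 ± 0.22, limma adjusted p = 0.0381), a call lost in 10 other settings (adjusted p = 0.0535 to 0.332), among them any aorta array but adult aorta 3 left out. The embryonic factors Lin28a and Hmga2 did not pass the filter. Lin28a read 3.27 to 29.0 in adult valve, 2.88 to 4.49 in neonatal valve, 4.24 to 47.3 in adult aorta and 5.34 to 35.5 in neonatal aorta, all at the absent level. Hmga2, which drives Igf2bp2 in mouse embryos, was at the absent level on 11 of 12 arrays and read 96.0 on 1 adult aorta array. Dicer1, which cuts microRNA precursors, was lower in valve at both ages: -1.36 ± 0.28 in adults (adjusted p = 0.00358) and -1.34 ± 0.28 in neonates (0.00444, and 0.132 with the control RNA block). Plagl2 was lower in adult valve than in adult aorta (-1.74 ± 0.38, adjusted p = 0.00514). In all, 3 of these genes were higher and 3 lower between adult tissues, and 1 each way between neonatal tissues; with each array centred, 6 were higher and 3 lower between adult and 6 and 1 between neonatal tissues.

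The genes that write, erase or read m6A had more calls between tissues than between ages. Of 17 tested, 0 were called between adult and neonatal valve (2 higher and 1 lower at an unadjusted p under 0.05, limma), and 1 fell in aorta. Between tissues 3 were higher and 2 lower in adult valve, and 4 higher and 3 lower in neonatal valve. With each array centred these counts were 9 and 1 in adult valve and 8 and 2 in neonatal valve. In neonatal valve 1 or 2 were higher and 2 lower with any neonatal array left out, and 0 and 2 with the control RNA block; in adult valve 5 were higher without adult aorta 3 and 1 lower without adult valve 2. Without adult valve 2, 1 rose and 1 fell in adult valve relative to neonatal valve. Over all probe sets tested, too, the shares called between tissues given above exceeded those between ages. The reader Ythdf2 read 429 to 799.7 in adult valve and 1636 to 3113 in adult aorta, and 692 to 1005 in neonatal valve and 4007 to 5149 in neonatal aorta. It was lower in valve at both ages, by -1.89 ± 0.30 in adults (adjusted p = 0.000867) and -2.52 ± 0.30 in neonates (0.000221). The writer subunit Wtap was lower too, by -0.79 ± 0.22 in adults (0.0147) and -2.27 ± 0.22 in neonates (6.6e-05), and it made the aorta age call (-0.81 ± 0.22, 0.0451). Its adult tissue call was lost with each array centred (0.183), with the adult groups alone (0.0837) and without adult valve 2 (0.0528), and its age call in 10 other settings (0.0598 to 0.54), among them any aorta array but adult aorta 1 left out. Cbll1, another writer subunit, was higher in valve, by 1.48 ± 0.27 in adults (0.00187) and 1.39 ± 0.27 in neonates (0.00302, and 0.0829 with the control RNA block). Mettl14, which partners the catalytic subunit, was higher in adult valve (1.08 ± 0.22, 0.0033).

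Genes of proteins found with IMPs in RNA granules also had more calls between tissues, as did all probe sets tested. Of all of these, 37.1% were called between adult and 32.6% between neonatal tissues, and 9.21% by age in valve and 7.31% in aorta. Of the 18 granule genes tested, 1 fell in adult valve and 4 in adult aorta, and 0 rose in either, also at an unadjusted p under 0.05. The aorta count was 0 with the control RNA block and without neonatal aorta 1 or 2, 2 without neonatal aorta 3 or adult aorta 2 or 3, and 6 without adult aorta 1. The valve count was 0 without any valve array but adult valve 2. Hnrnpr was the named gene among the aorta calls (-0.72 ± 0.15, limma adjusted p = 0.0154; 0.209 with the control RNA block, 0.0669 with these groups alone, 0.0684 without neonatal aorta 1 and 0.0745 without neonatal aorta 2). Between tissues 6 were higher and 3 lower in valve at each age, and 9 and 1 in adults and 7 and 1 in neonates with each array centred. In neonatal valve 1 was lower without neonatal aorta 2 or neonatal valve 2, and with the control RNA block 1 was higher and 0 lower. Tia1, a stress granule protein, was higher by 2.14 ± 0.36 in adult valve (adjusted p = 0.00119) and 1.87 ± 0.36 in neonatal valve (0.00282). Fmr1, the fragile X protein gene, was higher by 1.85 ± 0.25 in adult valve (0.000389) and 1.14 ± 0.25 in neonatal valve (0.006). Stau2, which encodes a Staufen transport protein, was higher by 1.21 ± 0.25 in adult valve (0.00347) and 1.38 ± 0.25 in neonatal valve (0.00204). With the control RNA block the neonatal calls of Tia1 (0.101) and Fmr1 (0.123) were lost. The 3′ to 5′ ratios moved with the same contrast, and their part in these calls was not tested.

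Other RNA-binding proteins of development were listed for comparison. Among all probe sets tested, 9.21% were called between ages in valve and 7.31% in aorta. Of the 16 listed genes tested, 1 rose and 0 fell in adult valve (4 lower at an unadjusted p under 0.05, limma), and 0 rose and 2 fell in adult aorta (2 higher unadjusted). Without adult aorta 1, 2 rose in aorta, and 0 fell there without neonatal aorta 2 or 3 and 1 without neonatal aorta 1 or adult aorta 2. In valve 1 fell without adult valve 1 or 2. The single rise was Mbnl1, a splicing factor named after its value was seen (1.30 ± 0.32, adjusted p = 0.0315; 0.0795 to 0.109 without adult valve 1 or 3 or neonatal valve 1 or 2). Ptbp1, a splicing repressor, fell in adult aorta (-1.22 ± 0.25, adjusted p = 0.0149; 0.361 with the control RNA block, and 0.0512 to 0.0734 without adult aorta 2 or neonatal aorta 2 or 3) and was lower in neonatal valve than in neonatal aorta (-1.97 ± 0.25, 0.000286). Its paralogue Ptbp2 was higher in neonatal valve (2.12 ± 0.46, 0.00528). Pum2 was higher in valve by 1.08 ± 0.20 in adults (0.00187) and 1.23 ± 0.20 in neonates (0.00109), and Celf1 by 1.14 ± 0.23 (0.00308) and 1.08 ± 0.23 (0.00467, and 0.117 with the control RNA block).

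Cell cycle genes shared the age direction of the Igf2bp genes. The list was chosen with earlier results of these data known, so the shared direction is a description and not a test. Among all probe sets tested, 5.21% were called lower in adult valve and 5.37% in adult aorta. Of the 26 cell cycle genes tested, 22 fell and 0 rose in adult valve and 22 fell and 0 rose in adult aorta, 0 rising also at an unadjusted p under 0.05. Their median log2 difference was -2.92 in valve and -2.43 in aorta. The summed signal of the 27 genes was 6545 to 12456 in adult valve and 34331 to 45411 in neonatal valve, and 5812 to 11954 in adult aorta and 32043 to 34192 in neonatal aorta. Cyclin E2 (Ccne2) fell in adult valve (log2 difference -3.33 ± 0.33, limma adjusted p = 0.000455) and in adult aorta (-3.35 ± 0.33, 0.000466). Mcm6, Rrm1 and Aurkb fell in both tissues as well, with the aorta call of Aurkb lost with the control RNA block (0.352) and without any aorta array but adult aorta 1 (0.0861 to 0.118). Between neonatal tissues 0 of 26 were called (2 higher and 1 lower at an unadjusted p under 0.05, limma), and 3 were higher with each array centred. In aorta the count was 3 with the control RNA block, 25 without adult aorta 1 and 12 to 15 with any neonatal aorta array or adult aorta 2 left out. Whether the cell cycle levels have a part in the Igf2bp age differences was not tested.

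Genes closest to each member were ranked by Pearson's r of log2(signal + 32) over the 12 arrays, which share their 4 groups, so that any gene with the same age difference ranks high. For Igf2bp2 the nearest were Plk4 (r = 0.977), Shcbp1 (0.973), Cdca5l1 (0.972), Pbk (0.970) and Mms22l (0.970). Plk4, the kinase of centriole duplication, read 42.5 to 192 in adult valve and 1068 to 1116 in neonatal valve, and 36.9 to 139 in adult aorta and 819 to 971 in neonatal aorta. For Igf2bp3 they were Klhdc3 (0.972), Dtl (0.971), Col9a1 (0.970), Parpbp (0.958) and Stil (0.957). Col9a1, a cartilage collagen chain, read 11.5 to 24.5 in adult valve and 395 to 1029 in neonatal valve, and 6.57 to 77.7 in adult aorta and 219.7 to 241 in neonatal aorta. It thus had neonatal valve above neonatal aorta, as 1393202_a_at did and the other 2 Igf2bp3 probe sets did not. For Igf2bp1 they were Pafah1b3 (0.959), Snrpa (0.949), Spa17 (0.932), Meg3 (0.932) and Slc39a11 (0.931). Meg3, an imprinted noncoding RNA, read 5.60 to 27.4 in adult valve and 523 to 2066 in neonatal valve, and 12.5 to 59.4 in adult aorta and 957 to 1455 in neonatal aorta. These r values are descriptions of 12 arrays and carry no test.

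**Figure D4:**
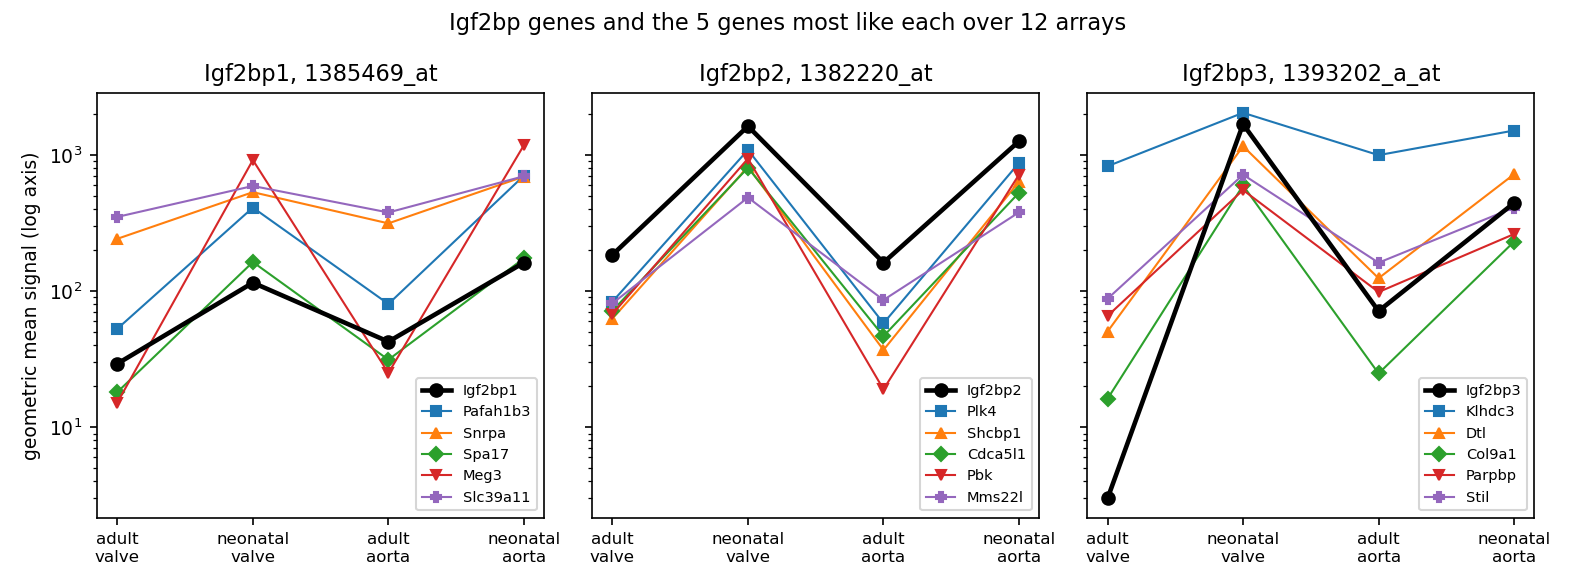
Geometric mean signal (MAS5 intensity, log axis) of each Igf2bp gene (black) and the 5 genes with the highest Pearson r to it over the 12 arrays, by group (n = 3 arrays each). Lines join the groups of 1 gene to show its pattern; the height of different genes cannot be compared.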

How the data were processed

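RNA of rat valve and aorta was labelled by T7 in vitro transcription and hybridised to 12 Affymetrix arrays, per the labels' protocols. Each deposited value is a linear intensity for 1 probe set; Expression Console and MAS5 are the authors' programs, per the submitters' processing notes, and their versions are not given there. Trimmed by 2% at either end, all array means were 500.1 to 500.2. Control probe sets (57) were not tested. Of the others 20826 had 1 symbol in the platform's annotation (20758 matched by gene ID to RefSeq), 436 several and 9780 none. Values under 1 were raised to 1 before log2, without renormalization. Probe sets above 171.944 on at least 3 arrays (18552, 59.8%) entered a limma 3.58.1 fit in R 4.3.3 with 1 mean per group over all 12 arrays (trended eBayes, 8 residual degrees of freedom, two-sided, Benjamini-Hochberg over all probe sets tested, threshold 0.05). Errors are standard errors of the fit unless marked SD. The number of arrays limits the precision; Spearman correlations within a group were 0.700 to 0.955.

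In data simulated on these arrays, the fit recovered 62.2% of genes with a log2 change of 2 between neonatal tissues and 63.9% between adult tissues (18552 probe sets, 200 changed). At a log2 change of 1 it recovered 16.3% and 13.7%. In the data 32.6% and 37.1% of probe sets were called between these tissues, a far larger share than was changed in the simulation. The Igf2bp genes, the 6 pathway lists and the marker lists were chosen with earlier results of these data known. The probe set of highest average log2 signal stood for a gene. Named were all Igf2bp probe sets, up to 4 genes a list with the smallest adjusted p in any comparison, Igf2, H19, Lin28a, Hmga2 and Myc, and the 5 genes most like each member. Lin28b was not analysed here. The alternatives were another scale, filter, normalization, centring, grouping or probe set, a block for replicate number or control RNA, fits of 2 groups alone, and each array left out.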

Additional observations from a re-analysis of the deposited data

How the results depend on the processing

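Values here are log2 differences. With the tissue entry of the labels in place of the title for the 6 conflicting samples, age and tissue comparisons change places by construction: Igf2bp1 gave -0.49 (aorta age) and -0.54 (valve age), Igf2bp2 0.37, 0.19, -2.97 (neonatal tissues) and -3.14 (adult tissues), Igf2bp3 1.92, -4.58 and -2.64 (neonatal tissues), and 1382609_at 0.37 (neonatal tissues). Quantile normalization gave 0.27 for Igf2bp1 between adult tissues, 0.40 (Igf2bp2) and -5.85 (Igf2bp3) for the age difference of valve over aorta, and 0.074 for 1382609_at between neonatal tissues; the cause was not tested. Adding 32 moved Igf2bp3 to -2.19 in aorta, -5.62 in valve and -3.43 for their difference, as it compresses low signals. The control RNA block gave Igf2bp3 2.07 between neonatal tissues, where the call did not hold and neonatal aorta rested on array 1 alone. In place of 1382220_at, 1382609_at gave 0.37 (aorta age), -0.67 (valve age), -0.35 (neonatal tissues), -1.39 (adult tissues) and -1.04 (valve over aorta). In place of 1393202_a_at, 1377824_a_at (all adult arrays at the absent level, as for 1390860_at) gave -1.73, -2.34, -0.83, -1.44 and -0.61 and 1390860_at -3.73, -4.27, -0.54, -1.07 and -0.54. With no filter, and with each array centred, the Igf2bp results kept their direction and side of the threshold, except that centring ended the call of 1382609_at between adult tissues and turned Igf2bp1 to 0.0073 for valve over aorta, far below its standard error. With 1 array left out, Igf2bp2 between adult tissues ran between -0.33 (without adult aorta 3) and 0.56, and was -0.06 without adult valve 3; valve over aorta ran between -0.62 and 0.44 for Igf2bp1 and between -0.70 and 0.19 for Igf2bp2, and 1382609_at lost its adult tissue call without adult valve 1 or 2. The age and tissue differences of the members otherwise kept direction and call, with Igf2bp3 at 1.74 to 2.19 between neonatal and -4.84 to -4.24 between adult tissues. Same-numbered arrays of different groups correlated at -0.31 to 0.24 in their deviations from group means (18 pairs), and other-numbered arrays at -0.29 to 0.39. Many of these pairs join an adult to a neonatal sample, which cannot share an animal. The ranges therefore do not decide whether the numbers pair the samples. The replicate block changed no Igf2bp call (Igf2bp3 1.92, limma adjusted p = 0.00642, between neonatal tissues) and moved the probe sets called to between 1128 and 6626.

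Probe sets called between adult and neonatal aorta numbered 1357, against 69 with the control RNA block, 811 with these groups alone, 2485 without adult aorta 1, 812 without adult aorta 2 and 431 to 524 without a neonatal aorta array; genes of the lists called there numbered 34, against 5, 19 and 15 to 42. In valve 1709 were called, against 662 to 951 without a neonatal valve array or adult valve 1, and 1137 without adult valve 3. Between neonatal tissues 6043 were called, against 1416 with the control RNA block (list genes 32 against 7, and 20 to 24 with 1 array left out). Between adult tissues 6891 were called, against 3646 with these groups alone (list genes 34 against 17). Centring turned the direction of calls from 2461 higher and 3582 lower to 4072 and 2381 between neonatal tissues, and from 3207 and 3684 to 5308 and 2264 between adult tissues, with the median difference at 0.24 and 0.34 in place of -0.09 and -0.05; in valve by age, 742 and 967 became 873 and 670. Signals near 54.6 or below have no order, which limits adult Igf2bp1 and Igf2bp3.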
